A study of Mus musculus with 4 samples.

Results

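Hybrid cells are described here: tumour epithelial cells that held messages of keratin 14, a keratin of the basal layer, together with more messages of keratins 8 and 18, the keratin pair of the luminal layer. They were chosen on measured values. A cell needed at least 2 unique molecular identifiers (UMIs, each standing for 1 captured message) of Krt5 plus Krt14, at least 4 of Krt8 plus Krt18, and at least as many of Krt8 plus Krt18 as of Krt5, Krt14, Krt15 and Krt17 together. It could hold at most 1 UMI of the macrophage genes C1qa plus C1qb and at most 2 of the fibroblast collagen Col3a1. The rule took 691 of 36162 cell barcodes, with 45, 233, 155 and 258 in tumours 1 to 4. They were set against 15995 luminal cells, which had at least 4 UMIs of Krt8 plus Krt18 and 0 of Krt5 plus Krt14, and against 696 basal keratin cells, whose basal keratins outnumbered Krt8 plus Krt18. The same limits on C1qa plus C1qb and on Col3a1 were applied to both.

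The cells came from mammary tumours of 3 female mice aged 13 to 14 weeks on the FVB background, and all samples carried the same alleles. MMTV-PyMT places the polyoma middle T oncogene under a mammary promoter, K14Cre drives Cre from a human keratin 14 promoter, and Rosa-tdTomato turns on a red reporter for good in a cell where Cre has acted and in its descendants. Mouse 1 gave tumour 1, pooled from multiple glands, and mouse 2 gave tumour 2, from the inguinal region. Mouse 3 gave a thoracic sample, tumour 3, and an inguinal sample, tumour 4. The cell classes are compared within the tumours, with the mouse as the replicate. The stated purpose of the series was the heterogeneity of metastatic breast cancer. The human promoter need not be active in the same cells as the mouse gene.

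The mammary duct has an inner luminal layer, which makes milk, and an outer basal layer of contractile cells that rest on the basement membrane. Keratins form pairs of an acidic and a basic partner: Krt14 pairs with Krt5 in basal cells, and Krt18 with Krt8 in luminal cells. Cells with keratins of both layers occur in the embryonic gland and in carcinomas, where K14-positive cells have been described at invading edges.

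The label was checked against markers. By its own rule the class held Krt14, but Krt14 came almost without its partner. Of the 691 hybrid cells, 665 (96.2%) had Krt14 and no Krt5, 23 had both, and 3 had Krt5 alone. Of the 696 basal keratin cells, 407 (58.5%) had both and 240 (34.5%) had Krt14 alone. These cell counts are not matched for UMIs. The basal keratin cells held 5277 UMIs of Krt5 plus Krt14 and the hybrid cells 2434, and more UMIs make it easier to see both genes. The class is thus one of Krt14 with Krt8 and Krt18, and the name hybrid is kept in that sense. The luminal markers that the rule did not use, Epcam, Elf5, Krt7 and Krt19, were present in every tumour, and the basal markers Acta2 and Trp63 were low. Krt7 and Krt19 were not lower on average in basal keratin than in luminal cells by any clear margin. They therefore say little about the label.

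The keratin levels describe the choice and carry no test. Levels are CPM, the UMIs of a gene scaled to the total UMIs of the summed cells of a class. Krt14 stood at 685, 524, 588 and 657 CPM in hybrid cells of tumours 1 to 4, and at 2475, 2290, 1955 and 1997 CPM in basal keratin cells. Krt5 stood at 32.9, 6.85, 20.1 and 6.60 CPM in hybrid cells, and at 686, 485, 778 and 717 CPM in basal keratin cells. The hybrid cells lay between the other classes for Krt14 and near the luminal 0 for Krt5. Krt17, a keratin of basal and stressed epithelium, stood at 126, 69.7, 68.0 and 34.5 CPM in hybrid cells, against 549, 4467, 786 and 771 CPM in basal keratin cells. Krt15 averaged 10.8 CPM in hybrid cells, 2.37 CPM in luminal cells and 478 CPM in basal keratin cells. Krt8 stood at 1079, 1001, 983 and 1240 CPM in hybrid cells and at 650, 683, 702 and 675 CPM in luminal cells, so the groups did not overlap. Krt18 overlapped, with 1627, 2312, 1464 and 1870 CPM in hybrid cells and 1669, 1980, 1210 and 1332 CPM in luminal cells.

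**Figure D1:**
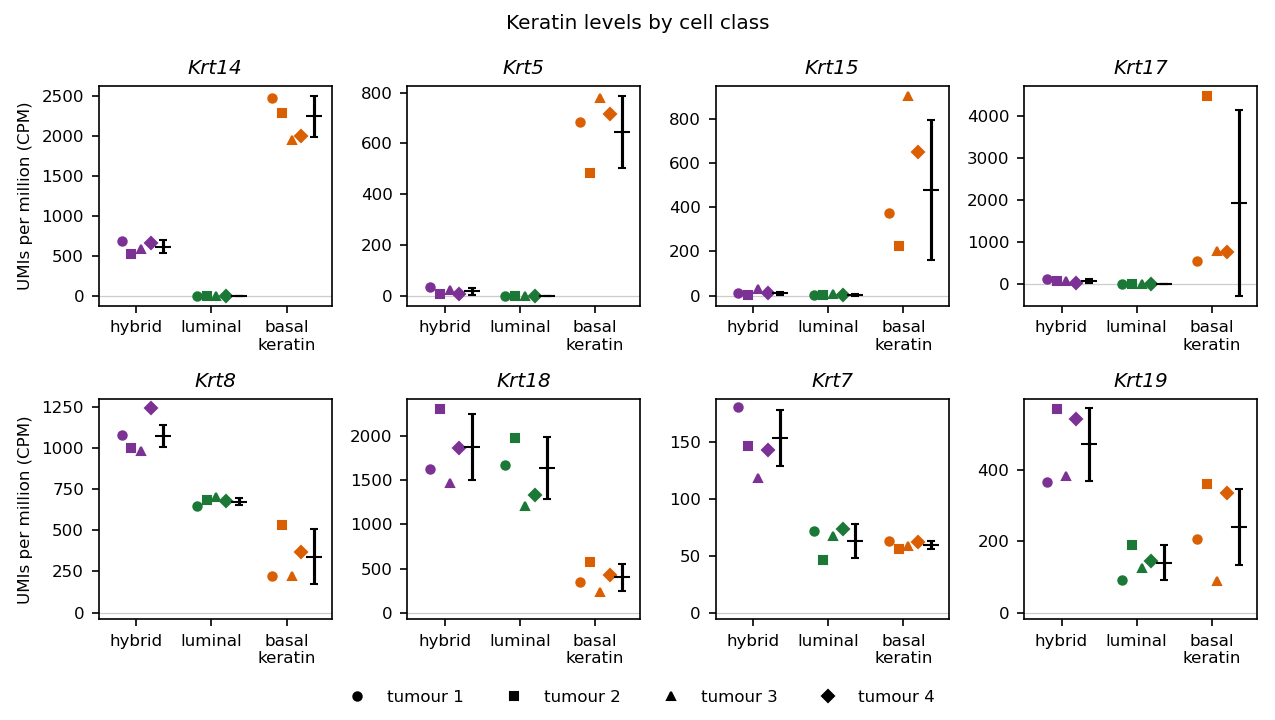
Level of 8 keratins in hybrid, luminal and basal keratin cells, in CPM. Each point is 1 tumour, and the cross and bar are the mean of 3 mice and its SD; Krt7 and Krt19 were not used to choose cells. Krt14 of hybrid cells (524 to 685 CPM) stands apart from both other classes, Krt5 stays under 33 CPM, and Krt7 and Krt19 are higher in hybrid than in luminal cells of every tumour.

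The keratin UMIs varied widely within the class. The median hybrid cell had 2 UMIs of Krt14, 4 of Krt8 and 7 of Krt18. Exactly 2 UMIs of Krt5 plus Krt14 were held by 347 hybrid cells (50.2%), and 10 or more by 23. Just outside the rule, 1083 cells met the other conditions with 1 such UMI. In 461 hybrid cells (66.7%) Krt8 plus Krt18 came to at least 3 times the basal keratin sum, and in 19 the sums were equal.

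The share of Krt5 among Krt5 plus Krt14 UMIs was lower in hybrid than in basal keratin cells of every tumour. It was 4.58%, 1.29%, 3.30% and 0.994% in hybrid cells of tumours 1 to 4, against 21.7%, 17.5%, 28.5% and 26.4% in basal keratin cells. The groups did not overlap. Pooled, 44 of 2434 UMIs were Krt5 in hybrid cells (1.81%) and 1410 of 5277 in basal keratin cells (26.7%). Both genes were part of the rule, so these shares are a description with no test. The order held in cells with at least 4 such UMIs (2.25% against 26.0%) and in cells at or under the luminal median of total UMIs (0.846% against 26.3%). Macrophages, which make neither keratin, carried stray UMIs of both. In cells with at least 5 C1qa plus C1qb UMIs, 55 of 275 Krt5 plus Krt14 UMIs were Krt5 (20.0%), with 7.14%, 0%, 28.0% and 14.8% by tumour. These were 2 of 28, 0 of 16, 40 of 143 and 13 of 88 UMIs, so the pooled value comes mostly from mouse 3. In tumours 1 and 2 the macrophage UMIs are too few to set their share apart from that of hybrid cells.

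**Figure D2:**
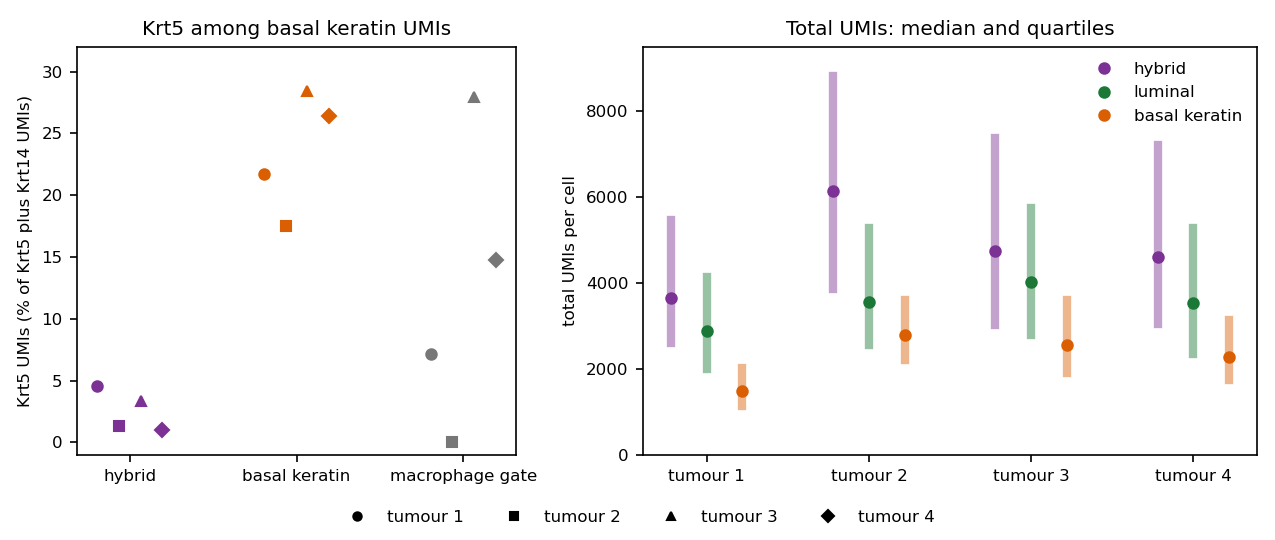
Left: Krt5 UMIs as a percentage of Krt5 plus Krt14 UMIs in hybrid cells, basal keratin cells and macrophage-gated cells, with 1 point a tumour. Right: total UMIs per cell in hybrid, luminal and basal keratin cells, with the median as a point and the quartiles as a bar. Hybrid cells lie at 0.994 to 4.58% on the left and have the highest median in every tumour on the right.

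The keratin genes lie in clusters on chromosomes 11 and 15. In GRCm38, Krt14 spans chr11:100203162-100207548 on the minus strand, beside Krt15, Krt17 and Krt19, while Krt5 spans chr15:101707070-101712898 on the minus strand, in a cluster with Krt7, Krt8 and Krt18. Krt5, nearly missing beside Krt14, and Krt7, which lies in the same cluster and rose over luminal cells, are shown by their promoter windows, 250 bases before to 50 bases after the start, from RefSeq (GRCm38.p6). The Krt5 window is chr15:101712856-101713155, minus strand, and the Krt7 window is chr15:101412153-101412452, plus strand. Capitals mark matches, on either strand, to a GC box (GGGCGG) or an AP-2 motif (GCCNNNGGC); a TATA box (TATAAA) and an AP-1 motif (TGANTCA) were searched too.
Krt5: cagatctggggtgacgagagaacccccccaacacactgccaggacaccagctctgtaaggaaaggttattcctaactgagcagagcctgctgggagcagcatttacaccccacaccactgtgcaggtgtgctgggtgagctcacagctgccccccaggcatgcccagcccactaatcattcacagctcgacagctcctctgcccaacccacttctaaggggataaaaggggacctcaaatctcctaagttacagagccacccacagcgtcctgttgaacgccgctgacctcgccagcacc
Krt7: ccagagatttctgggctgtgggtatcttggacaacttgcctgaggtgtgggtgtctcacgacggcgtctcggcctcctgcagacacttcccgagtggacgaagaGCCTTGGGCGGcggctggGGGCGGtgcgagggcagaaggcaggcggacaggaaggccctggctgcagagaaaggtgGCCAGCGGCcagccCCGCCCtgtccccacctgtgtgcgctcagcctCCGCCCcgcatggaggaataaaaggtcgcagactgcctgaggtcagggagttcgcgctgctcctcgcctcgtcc
The Krt7 window held 4 GC boxes and 2 AP-2 matches, of which 1 overlaps a GC box, and the Krt5 window held 0 of all 4 motifs. Over 32851 windows of the same length, 35.7% held a GC box, 16.6% an AP-2 match, 13.6% a TATA box and 7.81% an AP-1 match. A match is a run of letters and no measure of binding.

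Hybrid cells were a small share of every tumour. They made up 0.516% (exact 95% interval 0.376 to 0.690%), 2.43% (2.13 to 2.76%), 1.84% (1.56 to 2.15%) and 2.74% (2.42 to 3.09%) of the barcodes of tumours 1 to 4, or 1.75% ± 1.07 (SD, n = 3 mice). Of the cells with at least 4 Krt8 plus Krt18 UMIs they were 1.61%, 3.03%, 4.43% and 5.58%. Tumour 1 was lowest and tumour 4 highest by both denominators. After every cell was thinned to 2000 UMIs, with shallower cells left out, the shares were 0.242%, 0.771%, 0.712% and 1.39%. The intervals cover counting error only.

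A minimum of UMIs selects deep cells, and hybrid cells were deeper than luminal cells. Their median total was 3640, 6148, 4743 and 4597 UMIs in tumours 1 to 4, against 2892.5, 3553, 4019 and 3541 UMIs in luminal cells and 1471.5, 2785, 2550 and 2286 UMIs in basal keratin cells. The ratio of the hybrid to the luminal median was 1.26, 1.73, 1.18 and 1.30, or 1.41 ± 0.277 (SD, n = 3 mice). The luminal and basal keratin medians summed to 4364, 6338, 6569 and 5827 UMIs, the size a barcode with 1 cell of each would have. Of the hybrid cells 37.8%, 47.6%, 34.2% and 33.3% reached that sum, 267 in all (38.6%), against 21.4%, 16.3%, 17.9% and 20.0% of luminal cells. Another 215 hybrid cells (31.1%) were at or under the luminal median of their tumour. The doublet caller Scrublet named 1 doublet among all barcodes at its automatic threshold and so did not work. Among the 8% of barcodes with the highest scores in each library were 4.44%, 9.87%, 7.74% and 6.98% of hybrid cells, against 8.08%, 7.46%, 6.05% and 6.83% of luminal cells. The part of doublets in the results was not tested.

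Krt14 UMIs also reached cells that should lack them. At least 2 UMIs of Krt5 plus Krt14 were held by 2.04%, 3.24%, 6.01% and 6.65% of cells with at least 4 Krt8 plus Krt18 UMIs, against 0.668%, 0.583%, 1.73% and 2.09% of macrophage-gated cells, which were shallower (median 1346, 2573, 2337.5 and 2220 UMIs, against 2924, 3671, 4096 and 3637 UMIs). Thinned to 2000 UMIs, the shares were 1.09%, 1.28%, 3.06% and 3.52% of the keratin 8 and 18 cells, against 1.91%, 0.501%, 1.80% and 1.37% of macrophages. At this depth there were 2110, 7015, 3171 and 3952 keratin 8 and 18 cells and 157, 399, 666 and 510 macrophages. At matched depth the share of the keratin 8 and 18 cells exceeded the macrophage level in tumours 2, 3 and 4 and did not in tumour 1. In every tumour this share also counts cells that the hybrid rule leaves out. Hybrid cells alone were not set against the gates, so the excess in tumours 2, 3 and 4 is not shown for them. T cell-gated cells, few at this depth, had thinned shares of 0%, 0%, 6.35% and 2.27% (20, 47, 63 and 44 cells), so in tumour 3 their share was above that of the keratin 8 and 18 cells. Thinned fibroblast-gated cells had 0%, 0%, 1.00% and 0.943%, and endothelial-gated cells 0%, 1.10%, 0.571% and 2.22%. By this measure the 45 hybrid cells of tumour 1 cannot be told apart from stray RNA against the macrophage gate, nor those of tumour 3 against the T cell gate. Both gate shares rest on few cells. In tumour 1 the T cell, fibroblast and endothelial gates had 0% of 20, 77 and 20 cells.

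For all other genes, counts were summed per mouse and class and fitted with edgeR's quasi-likelihood test with mouse as a block, and adjusted p-values are Benjamini-Hochberg over 9658 genes. Against luminal cells, 382 genes (3.96%) were higher in hybrid cells and 263 (2.72%) were lower at an adjusted p of 0.05, and the median log2 fold change over all genes was -0.01. Without tumour 1, 670 genes were called in either direction instead of 645, and without tumour 4 the count was 311. The hybrid sum of mouse 1 held 182541 UMIs, where 1 UMI is 5.48 CPM, so low genes are poorly measured there.

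The highest of the luminal progenitor genes were Aldh1a3 and Slpi. Aldh1a3, a retinaldehyde dehydrogenase and marker of luminal progenitors, stood at 32.9, 21.8, 17.8 and 71.9 CPM in hybrid cells of tumours 1 to 4, against 5.05, 9.21, 3.37 and 5.42 CPM in luminal cells. The groups did not overlap, and the gene rose by 2.47 ± 0.259 on the log2 scale (SE, edgeR adjusted p = 3.65e-10, higher in 3 of 3 mice). Slpi, a secreted protease inhibitor, stood at 729, 233, 1132 and 700 CPM in hybrid cells, against 218, 52.3, 158 and 187 CPM in luminal cells (log2 2.06 ± 0.163, adjusted p = 4.24e-14). Dmkn, a secreted protein of differentiating epithelium, rose by 1.47 (122 ± 59.4 CPM in hybrid cells, 45.3 ± 15.0 CPM in luminal cells, SD, n = 3 mice), with mouse ranges that overlapped. In basal keratin cells Dmkn averaged 170 ± 125 CPM, and hybrid cells did not pass against them (log2 -0.29, edgeR adjusted p = 0.348). Of the 14 progenitor genes tested 5 rose and 1 fell, with a median log2 change of 0.21. The one that fell, Tspan8, a tetraspanin, was 0.65 lower on the log2 scale (adjusted p = 0.000853), and the call was lost without tumour 2 (adjusted p = 0.357) or tumour 4 (0.0681). Elf5, the transcription factor of the alveolar lineage, stood at 115, 91.5, 79.2 and 85.8 CPM in hybrid cells and at 65.5, 83.1, 74.7 and 76.7 CPM in luminal cells and did not pass (log2 0.17, adjusted p = 0.542).

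Among luminal identity genes, the simple keratins Krt19 and Krt7, which the rule did not use, were higher. Krt19, a small luminal keratin, stood at 367, 571, 383 and 543 CPM in hybrid cells, against 92.1, 191, 126 and 146 CPM in luminal cells. Hybrid values lay above luminal ones in every tumour (log2 1.72 ± 0.127, edgeR adjusted p = 5.30e-15). Krt7, the basic keratin of simple epithelium, stood at 181, 147, 118 and 143 CPM in hybrid cells, against 72.1, 46.1, 67.0 and 73.8 CPM in luminal cells (log2 1.23 ± 0.134, adjusted p = 1.46e-09). Neither keratin was particular to luminal cells. Krt19 averaged 241 CPM in basal keratin and 140 CPM in luminal cells, and Krt7 59.8 and 63.0 CPM. Hybrid cells were higher than basal keratin cells too (log2 1.20 for Krt19 and 1.33 for Krt7). Epcam, an adhesion molecule of simple epithelium, averaged 497 ± 202 CPM in hybrid cells and 401 ± 146 CPM in luminal cells and did not pass (log2 0.22, adjusted p = 0.355). Of 17 luminal identity genes tested 4 rose and 0 fell (median 0.27). Besides Krt7 and Krt19 these were the junction genes Cdh1 (log2 0.54) and Cldn4 (log2 0.52). Without tumour 2 or without tumour 4 the count was 2.

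Outside the lists, among genes of at least 20 CPM in the higher class that moved 1 way in 3 of 3 mice, the 8 largest rises were those of S100g, Pdgfb, Hp, S100a6, Aebp1, Fxyd6, Cryab and Trim47. S100a6, a small calcium-binding protein, was abundant, at 3265, 1707, 2312 and 3137 CPM in hybrid cells against 617, 447, 542 and 739 CPM in luminal cells, with no overlap (log2 2.08 ± 0.128, edgeR adjusted p = 5.39e-18). S100g, a vitamin D-dependent calcium carrier, stood at 5.48, 18.0, 173 and 69.7 CPM in hybrid cells, against 1.20, 5.26, 4.21 and 3.15 CPM in luminal cells. Its log2 change of 3.73 came mostly from mouse 3, and without that mouse it was 1.98 (adjusted p = 0.0636). Cryab, a small heat shock protein, was even between tumours at 98.6, 113, 109 and 105 CPM in hybrid cells, against 25.2, 28.0, 27.4 and 30.4 CPM in luminal cells (log2 1.89, adjusted p = 4.09e-15). Aebp1, an extracellular carboxypeptidase-like protein (log2 2.03), Fxyd6, a regulator of the sodium pump (1.99), the acute-phase haptoglobin Hp (2.36) and Trim47, a ubiquitin ligase (1.69), also rose in 3 of 3 mice. Pdgfb, a growth factor for pericytes, rose by 3.09 with 43.8, 1.87, 12.3 and 17.6 CPM in hybrid cells, against 1.32, 0.653, 1.15 and 2.40 CPM in luminal cells.

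**Figure D3:**
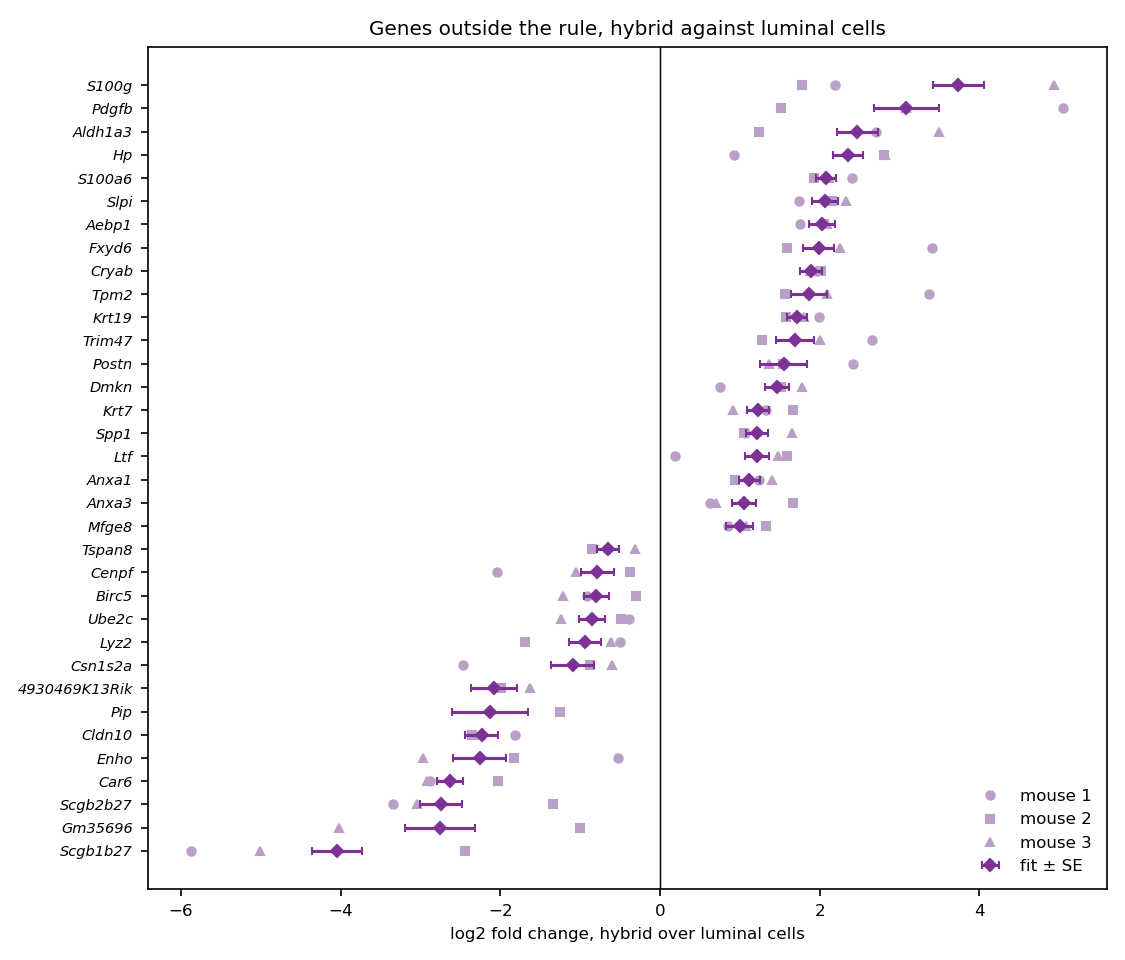
Log2 fold change, hybrid over luminal cells, of genes that passed the test and moved the same way in 3 of 3 mice. Diamonds are the edgeR estimates with their SE, and pale symbols are the CPM ratios of single mice, left out where a mouse had 0 UMIs. Krt19, Krt7, S100a6 and Cryab are tight between mice, while S100g, Pdgfb and Scgb1b27 spread widely.

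Secretory genes split. Milk and alveolar genes showed 4 higher and 2 lower of 13 tested, with a median of -0.04. Lactoferrin, Ltf, stood at 164, 311, 204 and 584 CPM in hybrid cells and at 145, 103, 117 and 186 CPM in luminal cells (log2 1.21, edgeR adjusted p = 2.83e-08). Spp1, osteopontin, rose by 1.22 and averaged 4426 ± 1999 CPM in hybrid cells and 1764 ± 351 CPM in luminal cells. Mfge8, the milk fat globule protein, rose by 1.00. Neither passed against basal keratin cells. There Spp1 averaged 3404 CPM (log2 0.36, edgeR adjusted p = 0.0992) and Mfge8 767 CPM (log2 0.10, adjusted p = 0.833). Csn3, the kappa casein, did not pass, with 3353, 7474, 3435 and 4851 CPM in hybrid cells and 3387, 8972, 2387 and 4718 CPM in luminal cells (log2 -0.09, adjusted p = 0.755). Csn1s2a, another casein, was lower by 1.09 on the log2 scale (adjusted p = 0.0061), a call lost without tumour 1 (adjusted p = 0.180).

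Of the 8 genes outside the lists with the largest falls by the same conditions, 4 encode secreted proteins known from salivary or lacrimal glands (Scgb1b27, Scgb2b27, Car6 and Pip). Scgb1b27, a secretoglobin, stood at 49.3, 59.7, 7.81 and 5.13 CPM in hybrid cells, against 2884, 325, 199 and 198 CPM in luminal cells. The ranges did not overlap (log2 -4.04 ± 0.314, edgeR adjusted p = 2.89e-14). Scgb2b27, its partner subunit, stood at 290, 972, 41.3 and 83.6 CPM in hybrid cells, against 2936, 2459, 486 and 599 CPM in luminal cells (log2 -2.74). Car6, the secreted carbonic anhydrase of saliva, stood at 71.2, 61.0, 79.2 and 37.4 CPM in hybrid cells, against 525, 250, 671 and 192 CPM in luminal cells (log2 -2.63, adjusted p = 5.39e-18). Each tumour showed the same direction for these 3 genes. Pip, the prolactin-inducible protein (log2 -2.13), the tight junction gene Cldn10 (-2.23), and Enho, which encodes a secreted peptide (-2.26), fell too. Gm35696 (-2.75) and 4930469K13Rik (-2.08) completed the rule's 8 lowest. Fewer cells with these messages and less RNA per cell cannot be told apart in summed counts.

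Contractile genes of the basal layer were higher than in luminal cells for 7 of 10 tested and lower for 0 (median 1.58), at low and uneven levels. Of the 7, Tagln and Tpm2 rose in 3 of 3 mice, Acta2, Cnn1, Myl9 and Lmod1 in 2, and Myh11 in 1. Acta2, smooth muscle actin, stood at 65.7, 0, 49.1 and 7.33 CPM in hybrid cells, against 5.77, 2.85, 7.89 and 5.55 CPM in luminal cells. Tumours 1 and 3 were high, tumour 4 was near the luminal level, and tumour 2 held 0 UMIs, where the limit of 3 counts is 1.87 CPM. Few cells carried Acta2 UMIs: 6.67%, 0%, 7.10% and 3.49% of hybrid cells, against 1.05%, 0.680%, 2.97% and 1.47% of luminal cells, not matched for depth. The gene passed (log2 1.54 ± 0.338, edgeR adjusted p = 0.00141) with a rise in 2 of 3 mice, and without tumour 3 the adjusted p was 0.521. Tpm2, a tropomyosin, rose in 3 of 3 mice, at 93.1, 53.5, 40.2 and 24.2 CPM in hybrid cells against 9.02, 18.0, 6.74 and 7.57 CPM in luminal cells (log2 1.87, adjusted p = 2.16e-08). Without tumour 3, 3 of 10 contractile genes passed, and by DESeq2 2 of 10 did.

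Contractile UMIs were then divided by the Krt5 plus Krt14 UMIs of the same cells. The subset of 6 genes was chosen after values were seen. For Acta2, Myh11, Mylk, Cnn1, Oxtr and Actg2 summed, it was 0.115, 0.00938, 0.149 and 0.0177 in hybrid cells of tumours 1 to 4, against 0.150, 0.187, 0.341 and 0.262 in basal keratin cells. Hybrid cells were below basal keratin cells in every tumour, although the highest hybrid value and the lowest basal one nearly met. For Trp63, the master transcription factor of the basal layer, the ratio averaged 0.00533 in hybrid cells and 0.0252 in basal keratin cells. Over all 12 contractile genes, which include the widely expressed Cald1, the ratio overlapped. It was 0.809, 0.865, 0.846 and 0.633 in hybrid cells and 0.513, 0.756, 0.898 and 0.760 in basal keratin cells.

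Most basal regulators did not pass against luminal cells. Trp63 stood at 5.48, 1.87, 3.35 and 2.93 CPM in hybrid cells, against 1.80, 0.756, 3.29 and 2.27 CPM in luminal cells (log2 0.48, edgeR adjusted p = 0.685). Snai2, a transcription factor of basal cells and of epithelial-mesenchymal transition, had 0 to 3.35 CPM in hybrid cells and 0.240 to 1.07 CPM in luminal cells (log2 1.64, adjusted p = 0.216). Of 14 basal transcription and signalling genes tested 2 rose, Igfbp2 and Cxcl14 (Cxcl14 in 2 of 3 mice), and 0 fell (median 0.56). Of 15 hemidesmosome and basement membrane genes 5 rose and 0 fell (median 0.44). They included Lamb3 (log2 1.36), a laminin chain of the epithelial basement membrane, and Itga3 (0.91), a chain of a laminin-binding integrin. Without tumour 2 that count was 3, and without tumour 4 it was 2. These examples, like others given for a list beside the rule for named genes, were chosen after their values were seen.

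Of 12 genes tied to invasion 10 were higher in hybrid than in luminal cells and 0 lower (median 0.91). Against basal keratin cells 2 of the 12 were higher and 5 lower (median -0.24). Anxa1, a phospholipid-binding protein, was even at 170, 174, 168 and 157 CPM in hybrid cells, against 71.7, 90.3, 59.6 and 62.5 CPM in luminal cells (log2 1.12 ± 0.133, edgeR adjusted p = 1.31e-08). Anxa3 rose by 1.05 (adjusted p = 1.28e-06), and without tumour 2 the adjusted p was 0.0797. The matrix protein Ccn2 (log2 1.03) rose at a low level. Without tumour 2 or without tumour 4, 5 of the invasion genes passed against luminal cells, and by DESeq2 6 did. Of 8 EMT and mesenchymal genes 2 rose over luminal cells and 0 fell, while 1 rose without tumour 2, 3 or 4. The 2 were the matrix glycoprotein Tnc (log2 2.58) and the gelatinase Mmp2 (log2 1.53). Against basal keratin cells 6 of the 8 were lower and 0 higher (median -1.63), with Tnc (-1.85) and Mmp2 (-2.47) among the lower. Vim, vimentin, stood at 54.8, 48.5, 42.4 and 33.0 CPM in hybrid cells, against 20.0, 27.2, 34.5 and 30.2 CPM in luminal cells and did not pass (log2 0.51, adjusted p = 0.0783). Postn, a matrix protein also used as a fibroblast marker, rose by 1.55 (adjusted p = 0.000187), and against luminal cells without the limits on C1qa plus C1qb and Col3a1 the change was 0.42 (adjusted p = 0.430).

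Of 19 proliferation genes tested 6 fell and 0 rose (median -0.60), and 18 of 19 had a negative change. Ube2c, a ubiquitin-conjugating enzyme of mitosis, stood at 43.8, 71.6, 37.9 and 49.9 CPM in hybrid cells, against 57.6, 101, 137 and 81.6 CPM in luminal cells (log2 -0.85 ± 0.165, edgeR adjusted p = 0.000282). Birc5, survivin, was lower by 0.80 on the log2 scale. Cenpf, a kinetochore protein, was lower by 0.79, and lost its call without tumour 3 (adjusted p = 0.145) or tumour 4 (0.0868). Mki67, the proliferation marker Ki-67, stood at 5.48, 11.8, 12.3 and 8.07 CPM in hybrid cells and 12.4, 19.5, 19.9 and 12.4 CPM in luminal cells, a difference that missed the threshold (log2 -0.76, adjusted p = 0.0588). Without tumour 3 or without tumour 4, 3 proliferation genes passed. Without mouse 3 the count was 0 of 15, and by DESeq2 it was 0 of 19 (3 and 4 at an unadjusted p under 0.05, against 11 by edgeR).

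Immediate early and dissociation genes, which answer to handling, had 7 of 14 higher and 0 lower against luminal cells (median 0.46), among them Fosb (log2 0.81) and Hspa1a (0.79), and 4 passed without tumour 2. Interferon and MHC class I genes had 4 of 12 higher, Isg15, Irf7, Ifit1 and Bst2, and 0 lower (median 0.08), and 2 passed without tumour 2. Hypoxia and glycolysis genes had 1 of 14 higher, the stress gene Ndrg1 (log2 0.99). Of 14 desmosome and cornified genes 3 rose and 1 fell, of 5 Notch genes 1 rose, Hes1 (log2 0.72), and of 3 hormone-sensing genes 1 rose, Ly6a (log2 1.00). Over all lists, 57 of 202 tested genes rose and 12 fell, of 279 listed.

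Against basal keratin cells, 568 genes (5.88%) were higher in hybrid cells and 504 (5.22%) were lower by edgeR, with a median log2 change of 0.05 over all genes. Without tumour 1 the total was 1023 instead of 1072, and without tumour 3, which held 393 of the 696 basal keratin cells, it was 449. Of 17 luminal identity genes 12 were higher and 0 lower (median 1.20), led by Muc1 (log2 2.28) and Cldn4 (2.09). Of 13 milk and alveolar genes 9 were higher and 0 lower (median 1.64). Csn1s1, a casein, stood at 236, 24.9, 6.69 and 85.1 CPM in hybrid cells, against 10.6, 0, 2.56 and 24.4 CPM in basal keratin cells (log2 2.95, adjusted p = 4.76e-09). Ltf rose by 2.17 and Wap, the whey acidic protein, by 2.14. Of 14 progenitor genes 9 were higher and 1 lower, and 3 were higher without tumour 3. Aldh1a3 was 2.09 higher (adjusted p = 0.00116), a call lost without tumour 3 (0.179) or tumour 4 (0.0886). Btn1a1, butyrophilin, was 1.67 higher (adjusted p = 0.0046) and lost its call without tumour 3 (0.678). The interferon genes Ifit1 (log2 2.51) and Irf7 (1.70) were higher too. Slpi went the other way, 1.28 lower than in basal keratin cells.

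Basal contractile and regulatory genes were lower in hybrid than in basal keratin cells. All 10 contractile genes tested fell (median -3.48), as did 11 of 14 basal transcription and signalling genes (median -3.29). In other lists, 6 of 15 hemidesmosome and basement membrane genes fell and 0 rose (median -0.54), and 6 of 14 desmosome and cornified genes fell and 1 rose (median -0.74). Acta2 stood at 65.7, 0, 49.1 and 7.33 CPM in hybrid cells, against 343, 372, 658 and 517 CPM in basal keratin cells, with no overlap (log2 -4.83 ± 0.277, edgeR adjusted p = 8.75e-20). Trp63 stood at 1.87 to 5.48 CPM in hybrid cells and 47.5 to 102 CPM in basal keratin cells (log2 -4.67), and Snai2 was lower by 3.82. Col17a1, a collagen of hemidesmosomes, had 10.96 CPM in hybrid cells of tumour 1 and 0 UMIs in the other three tumours, against 47.5, 22.6, 54.5 and 28.9 CPM in basal keratin cells (log2 -6.23, a value that depends on the treatment of zeros). The contractile genes Myl9 (-4.27), Cnn1 (-4.32) and Mylk (-4.20) and the cytokine Il17b (-4.14) complete the lowest genes with Dcn. Of 6 fibroblast genes tested 6 were lower, including Dcn (-4.59), and fibroblast markers summed to 55.4 to 222 CPM in hybrid cells and 575 to 1409 CPM in basal keratin cells, and the part of this fibroblast RNA in the contrast was not tested. Of 3 markers tested of mural cells, which share contractile genes, 2 were lower (Rgs5 by 2.31 in 2 of 3 mice and Pdgfrb by 2.55) and 1 was higher, with sums of 21.2 to 43.8 CPM in hybrid cells and 26.4 to 133 CPM in basal keratin cells. Of 8 macrophage markers 4 were lower and 1 was higher, with sums of 153 to 327 CPM in hybrid cells and 203 to 451 CPM in basal keratin cells. The part of either in the contrast was not tested. Of 19 proliferation genes 0 passed in either direction by edgeR (0 at an unadjusted p under 0.05) and 0 by DESeq2.

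**Figure D4:**
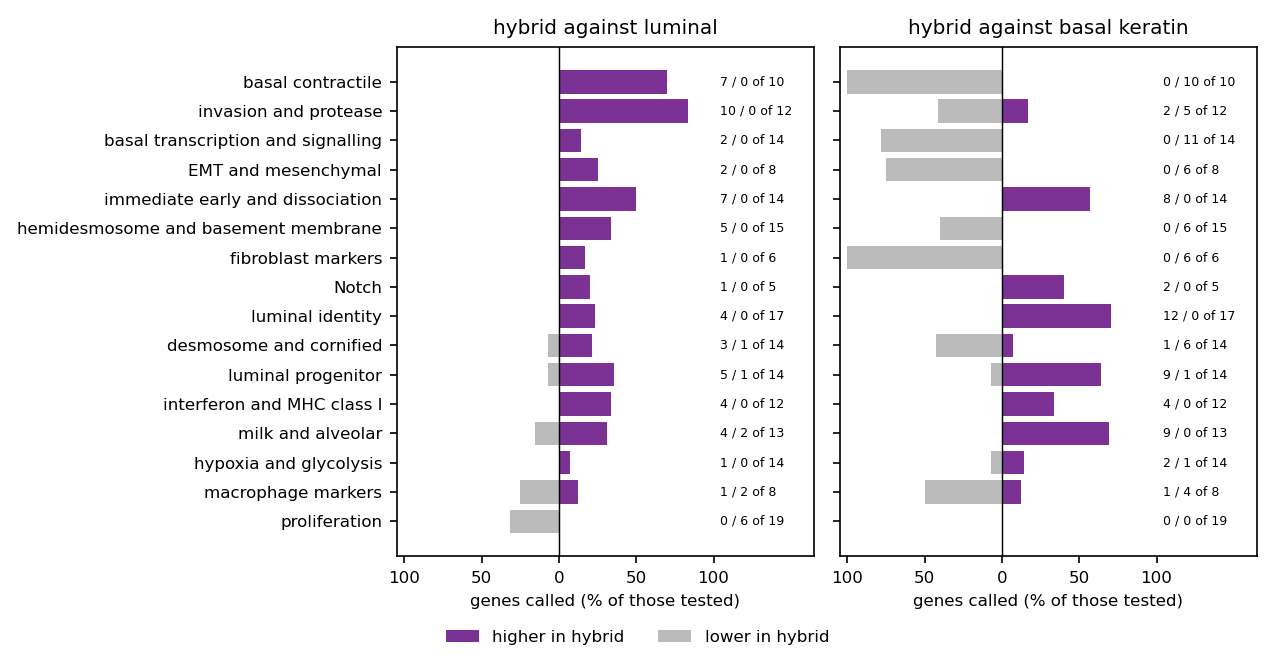
Share of the tested genes of each list that were higher (purple, right of 0) or lower (grey, left of 0) in hybrid cells, against luminal cells on the left and basal keratin cells on the right; numbers give higher / lower of tested, for lists with at least 5 genes tested. Contractile genes show 7 higher of 10 against luminal cells and 10 lower of 10 against basal keratin cells.

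The place of hybrid cells between the other classes was read gene by gene as the percent of the way from the luminal to the basal keratin level, as a description. Krt14 lay 27.5% ± 4.56 of the way (SD, n = 3 mice), a value the rule fixes in part. Krt5 lay at 2.59%, Krt15 at 1.83% and Krt17 at 9.86%. For 39 list genes outside the rule whose basal level was at least 20 CPM and 4 times the luminal one, the median was 7.90%, with a range of -10.98 to 47.3%. The 39 include the fibroblast markers Dcn, Postn and Mgp. Fibroblast markers summed to 575 to 1409 CPM in basal keratin cells, and the part of this RNA in the percentages was not tested. Acta2 lay at 6.61% ± 9.84, Trp63 at 3.30% ± 4.14 and Sparc, a matrix protein, at 3.06% ± 2.97. The highest was Slpi at 47.3% ± 31.2, with wide spread between mice.

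The reporter was high in all 3 epithelial classes. tdTomato stood at 2536, 2103, 2966 and 2793 CPM in hybrid cells of tumours 1 to 4, against 2283, 1732, 2241 and 2266 CPM in luminal cells. It was higher in hybrid cells of every tumour, but the difference did not pass (log2 0.19 ± 0.127, edgeR adjusted p = 0.445). Against basal keratin cells, at 1435, 2019, 1532 and 1781 CPM, it was 0.62 ± 0.134 higher (adjusted p = 0.000685), and without tumour 1 the adjusted p was 0.112. Macrophage-gated cells averaged 660 CPM, so reporter UMIs also reached cells outside the epithelium.

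Summed markers of other cell types overlapped in range between hybrid and luminal cells, although some differed within tumours. The 11 macrophage markers summed to 153 to 327 CPM in hybrid cells and 163 to 271 CPM in luminal cells, against 37310 to 45679 CPM in macrophage-gated cells, and none of the 11 was at 0. Lyz2, lysozyme, was lower in hybrid cells by 0.94 on the log2 scale (edgeR adjusted p = 0.0011), a call lost without tumour 2 (0.187). The 10 fibroblast markers summed to 55.4 to 222 CPM in hybrid cells and 59.2 to 145 CPM in luminal cells, with none at 0. The 8 endothelial markers summed to 5.48 to 33.0 CPM in hybrid cells and 16.1 to 39.4 CPM in luminal cells. The 7 mural markers summed to 21.2 to 43.8 CPM in hybrid cells and 22.7 to 31.3 CPM in luminal cells, and the 8 T cell markers to 5.60 to 16.4 CPM and 9.21 to 15.8 CPM. Des and Cd2 were at 0 in hybrid cells. By tumour, fibroblast sums were 137, 55.4, 222 and 148 CPM in hybrid cells, against 88.4, 59.2, 145 and 112 CPM in luminal cells. Mural sums were also higher in hybrid cells of tumours 1, 3 and 4, macrophage sums in tumours 3 and 4, and T cell sums in tumours 1 and 4. Endothelial sums were lower in every tumour. The part of mixed barcodes in this was not tested.

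The libraries held 8434 to 9580 barcodes and 20281799 to 39370565 UMIs, with a median of 1922.5 to 3281 UMIs per barcode. Between 96 and 129 barcode sequences were shared by each pair of libraries, and no hybrid cell shared its barcode with a hybrid cell of another library. The mouse block removes level differences between mice. The p-values rest on how far the class differences varied over the 3 mice, with the spread estimated from the hybrid, luminal and basal keratin sums together. Cells of a tumour are not replicates. Without the mouse block 11 genes were called against luminal cells and 294 against basal keratin cells.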

How the data were processed

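The 4 droplet single-cell libraries of dissociated mammary tumours, depleted of dead cells with magnetic beads per the labels' protocols, were read as deposited raw UMI counts. Per the submitters' processing notes, the authors used FastQC, Cell Ranger 2.2.0 and the genome build mm10 (GRCm38). The gene table held 55472 entries, a tdTomato reporter among them. Counts of near-identical gene copies, such as the secretoglobins, are uncertain.

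The hybrid, luminal and basal keratin cells were chosen by UMI thresholds. The 9 genes of the rule were not tested. Members, lists and the rule for named genes were chosen with earlier results of these data known. That rule took list genes that passed, had 1 direction in all 3 mice and a mean of at least 20 CPM in the higher class, the 12 highest and 12 lowest against luminal cells (6 lowest qualified) and the 8 of each against basal keratin cells, with 8 of each outside the lists, plus 10 fixed genes. Counts were summed per mouse (tumours 3 and 4 together) and class, for at least 20 cells, and fitted in edgeR 4.0.16 (TMM, filterByExpr, quasi-likelihood test, mouse as a block). The block rests on the classes of a mouse coming from the same tumours. Calls are at an adjusted p of 0.05; SE is the change divided by the root of F. CPM values are not TMM-scaled. Scrublet (scanpy 1.11.5) and thinning to 2000 UMIs used fixed seeds. Alternatives included DESeq2 1.42.0. The procedure was tested on simulated data. Some genes of the lists are counted in them but not reported here by name.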

Additional observations from a re-analysis of the deposited data

Results flagged for a closer look

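In 7 of the 70 results tested for a lone tumour, 1 of the 4 tumours stood apart in hybrid cells by a gap above Dixon's 95% critical value. The 70 were gene levels, cell shares, depths and UMI ratios, and the 7 flagged were all gene levels. Chance alone flags about 1 in 20 groups of 4. Trim47 was high in tumour 3, at 43.5 CPM against 18.3 to 21.9 CPM in the other tumours. Pip had 6.85 CPM in tumour 2 and 0 elsewhere. Epcam was high in tumour 1, at 729 CPM against 362 to 403 CPM. Irf7 was high in tumour 2, at 224 CPM against 59.1 to 76.7 CPM. Btn1a1 was low in tumour 2, at 4.98 CPM against 27.4 to 29.0 CPM. Col17a1 had 10.96 CPM in tumour 1 and 0 elsewhere. Dcn, a fibroblast gene, had 34.6 CPM in tumour 3 against 0 to 5.13 CPM. No cause was tested for any of these values.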

How the results depend on the processing

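Against luminal and basal keratin cells, 645 and 1072 genes were called. The counts were 209 and 528 with DESeq2, 11 and 294 with no mouse block, 155 and 155 without mouse 3, 354 and 543 with at least 4 Krt5 plus Krt14 UMIs, and 164 and 451 in cells at or under the luminal median UMI. Within the hybrid interquartile UMI range, the count against basal keratin cells was 365. Leaving out 1 tumour gave 311 to 670 and 449 to 1023. Fewer samples or cells enter several of these fits; otherwise the cause was not tested. Of calls against luminal cells 59.2% were higher, against 69.4% with DESeq2, 81.8% with no mouse block, 49.0% with no filter on low counts, 70.1% at low UMIs and 47.2% in the interquartile range. Of calls against basal keratin cells 53.0% were higher, against 42.2%, 40.1%, 44.3% and 35.1% under DESeq2, no block, no filter and the interquartile range. The share of hybrid cells was 0.493% at 4 UMIs and 3.24% of Krt8 plus Krt18 cells. Contractile UMIs per Krt5 plus Krt14 UMI were 0.517 at 4 UMIs and 0.669 at low UMIs. Of 1156 values of named genes under alternatives, 101 lost and 5 gained a call, and none reversed, with Acta2 and Trp63 not counted where cells were chosen to lack them. Dropping hybrid cells with Krt5 UMIs, or with contractile or Trp63 UMIs, was chosen after seeing the data and gave 643 and 592 calls against luminal cells. In tumour 1, 3 counts correspond to 16.4 CPM in hybrid cells.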
